A study of Homo sapiens with 6 samples.

Results

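A set of 10 genes whose products build the mitotic spindle and then divide the cell was followed after knockdown of NONO, a nuclear RNA-binding protein of paraspeckles. The genes were AURKA, TPX2, HMMR, NUSAP1, PRC1, RACGAP1, ECT2, ANLN, CIT and CEP55, taken by Ensembl identifier from the 62492 genes listed for each library. All 10 were found as 1 row each, and all 10 had enough counts to be tested. RNA-seq of polyadenylated RNA was carried out in HCT116 cells, an established human colorectal carcinoma line whose genotype is labelled as wild type. The cells were transfected with a control siRNA duplex (siControl) or with a NONO-targeted duplex (siNONO), each at 20 nM. Each group had 3 libraries, labelled as Sets 1, 2 and 3, and each Set held 1 siControl and 1 siNONO library. The knockdown was transient and used 1 NONO duplex in 1 cell line, so that loss of NONO and any other effect of that duplex cannot be told apart.

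A cell entering mitosis arranges its microtubules into a bipolar spindle. Aurora A kinase (AURKA) and its activator TPX2 promote microtubule nucleation, and HMMR and NUSAP1 bind and organize spindle microtubules. After the chromosomes part, PRC1 bundles the antiparallel microtubules of the central spindle. There RACGAP1, with the kinesin KIF23, forms the centralspindlin complex and recruits ECT2, the exchange factor that activates the GTPase RHOA. RHOA drives assembly of the actomyosin ring, which ANLN scaffolds. CIT (citron kinase) holds the midbody together, and CEP55 brings the ESCRT machinery there to cut the last bridge. Transcripts of this kind are most abundant in G2 and M phase of cycling cells. In bulk RNA, fewer cells in those phases and less RNA per cell cannot be told apart.

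All 10 genes were lower in siNONO, by the quasi-likelihood test of edgeR, with p-values adjusted by Benjamini-Hochberg over 17000 genes and with the Set blocked. Called means an adjusted p no greater than 0.05, and 23.4% of all genes tested were called lower. The log2 fold changes of the 10 genes, computed from counts as siNONO against siControl, ran from -0.31 for RACGAP1 to -1.25 for ANLN, with a median of -0.90. Their median was -0.94, -0.88 and -0.84 in Sets 1, 2 and 3. Over all genes tested the median was -0.00, with quartiles of -0.22 and 0.21. Every siNONO library lay below every siControl library for each of the 10 genes in CPM, the counts scaled to library size, an order that 24% of all genes tested showed. AURKA and NUSAP1 also belong to the mitotic microtubule GO list that the study picked from these samples, so their fall is not independent evidence on that list.

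Some facts of the whole series bear on these values. The estimated counts summed to between 21765393 and 32659002 per library. NONO itself fell from 363, 330 and 407 TPM (transcript abundance scaled for length and library size) in siControl Sets 1, 2 and 3 to 75.7, 75.5 and 81.7 TPM in siNONO. NONO had a log2 fold change of -2.40 (standard error 0.0337, adjusted p = 2.47e-13 by the same edgeR test). In all, 7924 genes changed, 3985 lower and 3939 higher, and the biological coefficient of variation was 3.51%. Of 6 epithelial markers, 5 had at least 1 TPM in every library, and VIL1, the exception, lay between 0.01 and 0.17 TPM. The summed epithelial level was 2091 to 2226 TPM in siControl and 1943 to 2152 TPM in siNONO. None of 4 leukocyte markers and neither of the 2 endothelial markers matched reached 1 TPM in every library, with sums of at most 0.74 and 0.34 TPM in any library. Of 3 fibroblast markers, COL1A1 was present at 16.2 to 19.0 TPM, and COL1A2 was listed at 0 in all libraries.

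To show the DNA from which these transcripts start, the bases upstream of the RefSeq start site (GRCh38.p14) are given for the 7 of the 10 genes that matched an entry of the RefSeq promoter table. AURKA, TPX2 and RACGAP1 had none. Promoters of many mitotic genes carry a cell cycle homology element, a short motif through which the DREAM and MuvB complexes act, and CCAAT boxes bound by NF-Y. Each line runs 5′ to 3′ on the strand of the gene and ends at the base before the start. Capitals mark TTTGAA or TTCGAA and CCAAT, on either strand, where motifs that overlap or touch appear as 1 run. The lines cover chr5:163460502-163460631 (plus strand) for HMMR, chr15:41332751-41332880 (plus) for NUSAP1, chr15:90994536-90994665 (minus) for PRC1, chr3:172750596-172750725 (plus) for the first of the start sites of ECT2, chr7:36389732-36389861 (plus) for ANLN, chr12:119877321-119877450 (minus) for CIT and chr10:93496482-93496611 (plus) for CEP55.
HMMR: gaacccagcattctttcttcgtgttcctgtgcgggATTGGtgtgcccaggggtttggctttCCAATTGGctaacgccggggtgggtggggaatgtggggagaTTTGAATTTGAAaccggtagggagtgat
NUSAP1: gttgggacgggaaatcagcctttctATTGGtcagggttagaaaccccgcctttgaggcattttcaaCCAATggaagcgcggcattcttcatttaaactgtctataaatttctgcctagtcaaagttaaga
PRC1: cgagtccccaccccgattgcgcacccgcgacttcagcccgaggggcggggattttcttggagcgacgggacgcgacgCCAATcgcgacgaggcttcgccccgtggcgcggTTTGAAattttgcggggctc
ECT2: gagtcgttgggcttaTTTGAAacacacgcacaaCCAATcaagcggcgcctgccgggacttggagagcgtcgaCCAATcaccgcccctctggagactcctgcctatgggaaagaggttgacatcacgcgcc
ANLN: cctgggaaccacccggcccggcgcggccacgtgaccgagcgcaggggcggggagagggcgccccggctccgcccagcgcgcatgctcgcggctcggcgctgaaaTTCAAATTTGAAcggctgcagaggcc
CIT: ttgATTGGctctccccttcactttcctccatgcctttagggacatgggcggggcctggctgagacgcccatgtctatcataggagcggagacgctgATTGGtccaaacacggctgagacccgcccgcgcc
CEP55: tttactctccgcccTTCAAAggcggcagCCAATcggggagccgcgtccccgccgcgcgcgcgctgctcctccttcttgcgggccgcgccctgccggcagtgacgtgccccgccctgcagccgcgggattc
Positions below are those of the first base of a match, with the base before the start as -1 and the start itself as 1. In HMMR and ANLN a pair of these elements lay side by side just upstream of the start, at -28 and -22 in HMMR and at -26 and -20 in ANLN. PRC1 had a single element at -20, with 1 CCAAT at -53. In the first window of ECT2 the element stood at -115 and again at 35, with CCAAT at -97, -58 and -2. The reverse complement of the element, TTCAAA, stood at -116 and -3 in CEP55, the nearer one running past the start. NUSAP1 and CIT held their nearest match downstream of the start, outside the bases shown, at 14 and 11.

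Within windows of 250 bases before to 50 bases after the start, TTTGAA or TTCGAA was found on either strand for 7 of 7 genes with an entry. Of all 35116 windows in the table, 16.4% held it, and TTTGAA alone was found in the same 7 of 7 genes and in 15.2% of all windows. CCAAT was found for 6 of the 7 genes, ANLN being the one without it, and in 34.6% of all windows. ECT2 has 2 windows and counts as holding a motif if either does. These counts describe letters in the windows and were not tested, and binding of any factor there was not measured.

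**Figure D1:**
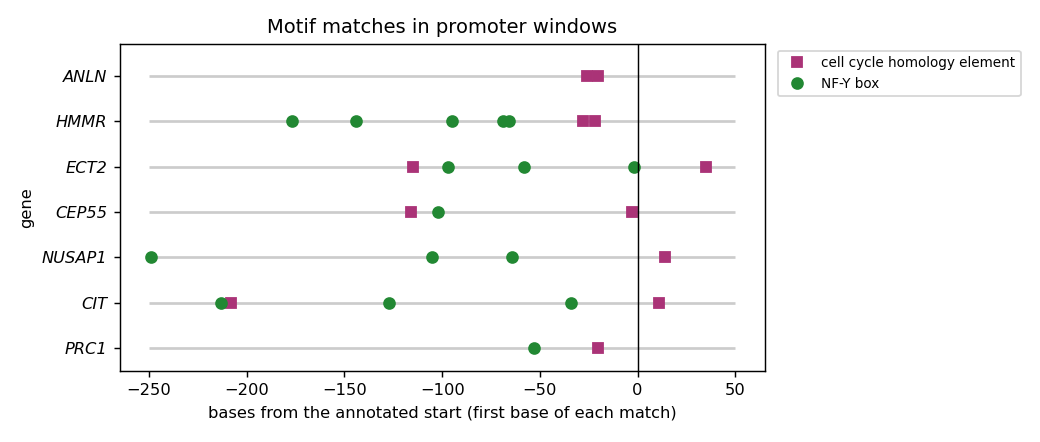
Positions of the letters TTTGAA or TTCGAA and of CCAAT, on either strand, in bases from the RefSeq start site (x axis) for the genes with an entry in the promoter table (rows, with only the first start site of ECT2). Elements lie just upstream of the start in HMMR (-28 and -22), ANLN (-26 and -20) and PRC1 (-20). The element at -3 in CEP55 runs past the start, and ANLN has no CCAAT.

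The 4 spindle assembly genes had log2 fold changes with a median of -0.82. Here and below, the percentage of the siControl level given for a gene was computed from its count-based log2 fold change. It can therefore differ from the ratio of the TPM values printed beside it. AURKA, on chromosome 20 of GRCh37 (54944445 to 54967393, minus strand), was at 62.6, 63.6 and 63.8 TPM in siControl Sets 1, 2 and 3 and at 39.3, 41.9 and 40.0 TPM in siNONO. The kinase was thus steady within each group and did not overlap between them. AURKA changed by -0.53 on the log2 scale (standard error 0.0376, adjusted p = 1.88e-07, edgeR), at -0.54, -0.53 and -0.54 in the 3 Sets, or 69.0% of the siControl level. TPX2, the activator that also anchors AURKA on the spindle (chromosome 20, 30327074 to 30389608, plus strand), was at 106, 113 and 104 TPM in siControl and 62.2, 64.0 and 65.2 TPM in siNONO. It fell to 63.3% of siControl, a log2 fold change of -0.66 (standard error 0.0350, adjusted p = 1.76e-08). The fall of TPX2 was smallest in Set 3, at -0.57, and greatest in Set 2, at -0.73.

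HMMR (chromosome 5, 162887209 to 162918947, plus strand), a microtubule-binding protein that helps place the spindle poles, was at 54.6, 57.1 and 44.7 TPM in siControl and at 25.7, 26.5 and 25.7 TPM in siNONO. The siControl library of Set 3 was the lowest of its group, and it still lay above all siNONO libraries. HMMR had a log2 fold change of -1.08 (standard error 0.0551, adjusted p = 1.24e-08), which left 47.3% of the siControl level. Its values in Sets 1, 2 and 3 were -1.18, -1.16 and -0.88, the widest range among the 10 genes. NUSAP1, which crosslinks spindle microtubules near chromosomes (chromosome 15, 41612992 to 41673248, plus strand), was at 110, 122 and 100.1 TPM in siControl and at 49.96, 64.5 and 52.1 TPM in siNONO. It fell to 50.8% of siControl, with a log2 fold change of -0.98 (standard error 0.0373, adjusted p = 8.99e-10). Set 2 gave the highest NUSAP1 level in both groups, and its log2 fold change there, -0.94, was close to those of -1.04 and -0.95 in Sets 1 and 3.

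Of the 3 genes of the central spindle and RHOA activation, ECT2 changed most. PRC1 (chromosome 15, 91509270 to 91538859, minus strand) was at 95.7, 102 and 105 TPM in siControl and 59.9, 62.3 and 68.0 TPM in siNONO. PRC1 changed by -0.56 on the log2 scale (standard error 0.0356, adjusted p = 7.42e-08), or 67.6% of siControl. RACGAP1 (chromosome 12, 50370706 to 50426919, minus strand), the GTPase-activating subunit of centralspindlin, was at 67.3, 68.5 and 63.9 TPM in siControl and 54.0, 50.9 and 53.3 TPM in siNONO. Its change was the smallest of the 10 genes, -0.31 (standard error 0.0344, adjusted p = 1.08e-05), and left 80.7% of the siControl level. It was close to the same in each Set, at -0.30, -0.34 and -0.29. ECT2 (chromosome 3, 172468472 to 172539264, plus strand) was at 73.2, 72.1 and 64.4 TPM in siControl and 35.5, 36.3 and 29.7 TPM in siNONO. The exchange factor fell to 48.8% of siControl, a log2 fold change of -1.04 (standard error 0.0364, adjusted p = 3.98e-10), and its log2 fold change lay below that of RACGAP1 in every Set.

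The 3 genes of the ring and of abscission had a median log2 fold change of -1.03. ANLN (chromosome 7, 36429430 to 36493400, plus strand) was at 87.7, 87.0 and 86.6 TPM in siControl and 34.4, 40.5 and 34.3 TPM in siNONO. Its log2 fold change, -1.25 (standard error 0.0319, adjusted p = 2.81e-11), was the lowest of the 10 genes in every Set, at -1.23, -1.27 and -1.26, and 41.9% of the siControl level remained. Counted from the lowest log2 fold change, ANLN ranked 111 and RACGAP1 3117 among the 17000 genes tested. CIT (chromosome 12, 120123596 to 120315124, minus strand), at 18.6, 18.0 and 18.6 TPM in siControl, was at 9.12, 10.9 and 10.0 TPM in siNONO. It changed by -0.83 (standard error 0.0416, adjusted p = 1.11e-08), to 56.3% of siControl. CEP55 (chromosome 10, 95256369 to 95288849, plus strand) was at 57.1, 58.2 and 56.1 TPM in siControl and 26.5, 26.3 and 25.6 TPM in siNONO. With values of -1.02, -1.04 and -1.02 in the 3 Sets, the abscission adaptor CEP55 changed by -1.03 (standard error 0.0369, adjusted p = 5.02e-10), to 49.1% of siControl.

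**Figure D2:**
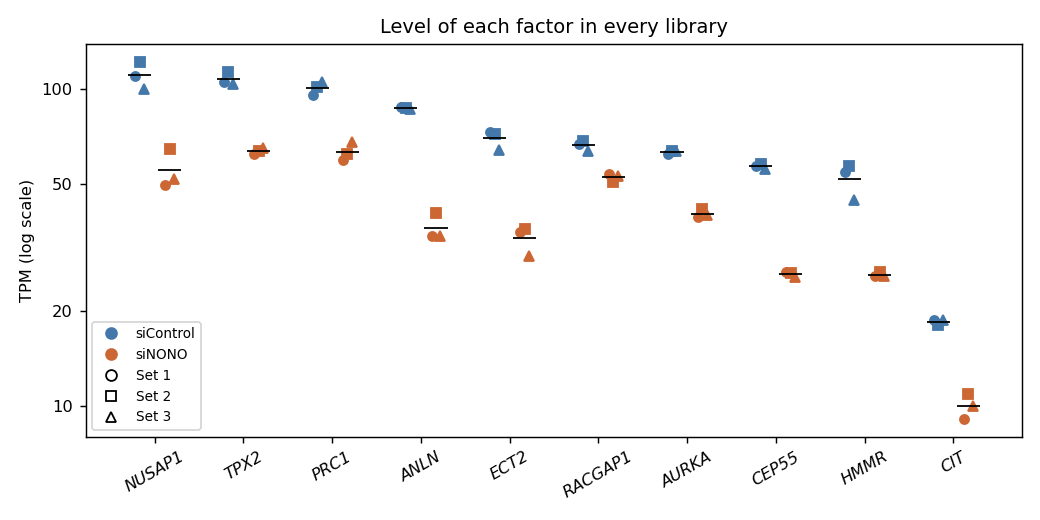
TPM of the 10 genes (y axis, log scale) in each of the 3 siControl and 3 siNONO libraries, 1 point per library, with the mean of each group as a line. For each gene the siNONO points lie below the siControl points, from 9.12 to 10.9 against 18.0 to 18.6 TPM for CIT to 62.2 to 65.2 against 104 to 113 TPM for TPX2.

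Ordered by the size of their change, the 10 genes fell into steps when the ranges over the 3 Sets were set side by side. ANLN stood apart at the low end. HMMR, ECT2, CEP55 and NUSAP1 followed, and each overlapped the next in its range over Sets. CIT overlapped neither NUSAP1 before it nor TPX2 after it. TPX2, PRC1 and AURKA again overlapped their neighbours, and RACGAP1 stood apart at the other end. The ranges over Sets are descriptions, and differences between genes were not tested.

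**Figure D3:**
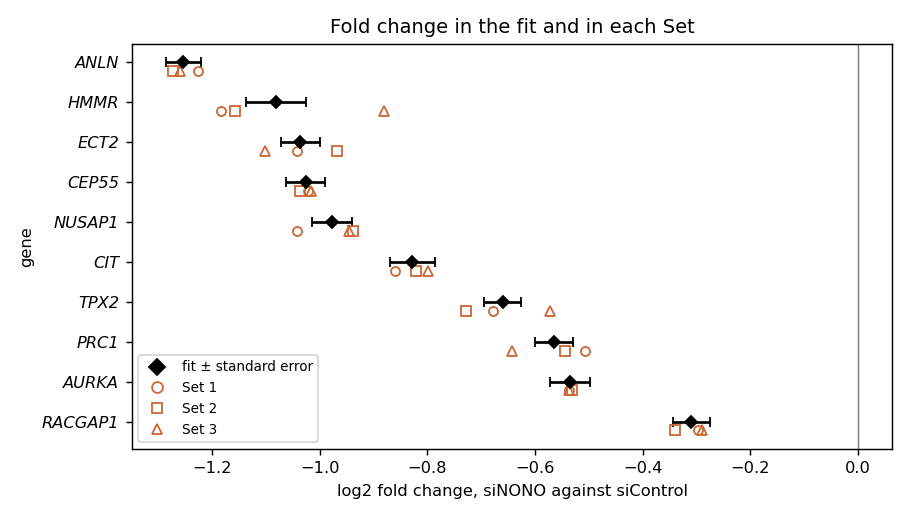
Log2 fold change, siNONO against siControl, (x axis) of the 10 genes (rows) in each Set (open points), with the edgeR value and its standard error (filled diamonds). All points lie below 0, with ANLN lowest at -1.25 and RACGAP1 highest at -0.31.

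TPM is scaled per length, so levels of different genes can be set side by side. In siControl the order by mean TPM was NUSAP1 at 111 ± 10.9, TPX2 at 107 ± 4.91, PRC1 at 101 ± 4.69, ANLN at 87.1 ± 0.595, ECT2 at 69.9 ± 4.79, RACGAP1 at 66.6 ± 2.38, AURKA at 63.3 ± 0.665, CEP55 at 57.1 ± 1.05, HMMR at 52.1 ± 6.56 and CIT at 18.4 ± 0.378 (SD, n = 3). Neighbours whose libraries overlapped were NUSAP1 and TPX2, TPX2 and PRC1, ECT2 and RACGAP1, and CEP55 and HMMR. In siNONO the order began with TPX2 at 63.8 ± 1.503, PRC1 at 63.4 ± 4.15, NUSAP1 at 55.5 ± 7.84 and RACGAP1 at 52.7 ± 1.66 TPM, where each overlapped the next. AURKA at 40.4 ± 1.301, ANLN at 36.4 ± 3.58 and ECT2 at 33.8 ± 3.58 TPM came next, with overlap between neighbours. CEP55 at 26.1 ± 0.484 and HMMR at 26.0 ± 0.440 TPM overlapped, and CIT was again lowest at 10.0 ± 0.880 TPM. ANLN thus stood above ECT2, RACGAP1 and AURKA in siControl, and below RACGAP1 and AURKA by mean in siNONO, where its libraries reached those of AURKA. The 10 genes together took 733 ± 27.1 TPM in siControl and 408 ± 14.2 TPM in siNONO (SD, n = 3), or 55.7% by TPM. The percentages given above for single genes came from counts, so they are not like for like with this one.

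For some of these genes, reads could be shared with others. Fractional estimated counts, the mark of reads divided among genes, occurred for PRC1 in 6 libraries, for NUSAP1 in 5 and for AURKA in 4, and the counts of the other 7 genes were whole. PRC1 shares exons on its strand with a predicted protein-coding gene, ENSG00000284946, which had 341 to 741 counts per library. With the counts of that gene added, the log2 fold change of PRC1 was -0.59. It was -0.99 for NUSAP1 with the counts of ENSG00000285920, a predicted protein-coding gene on its strand, and -0.53 for AURKA with those of ENSG00000213033. All 3 were still called lower. The lncRNA OIP5-AS1 also shares exonic bases with NUSAP1 on the same strand, and its counts were not added. NUSAP1, HMMR, PRC1, RACGAP1, ANLN and CIT overlap exons of genes on the opposite strand. Whether counting used the strand is not given in the sources used here, and reads from such partners can then not be told apart.

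RSEM also gives for each gene a transcript length weighted by the estimated abundance of its transcripts, a readout that shifts when other transcripts of a gene are used. HMMR had weighted lengths of 2491, 2476 and 2457 bases in siControl and 2217, 2265 and 2197 bases in siNONO. ECT2 had 3392, 3289 and 3311 bases in siControl and 3207, 3145 and 3134 bases in siNONO. In both genes every siNONO library was shorter than every siControl library, and in the other 8 genes the groups overlapped. Such a lack of overlap, in either direction, was seen in 13.9% of the 13389 genes tested. The log2 difference was -0.15 (standard error 0.0172) for HMMR and -0.07 (standard error 0.0146) for ECT2, and neither passed limma's test (adjusted p = 0.490 for both). None of the 13389 genes did, a share of 0%, while 1209 had an unadjusted p under 0.05. With so few libraries, the lack of calls does not show that the lengths were unchanged.

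**Figure D4:**
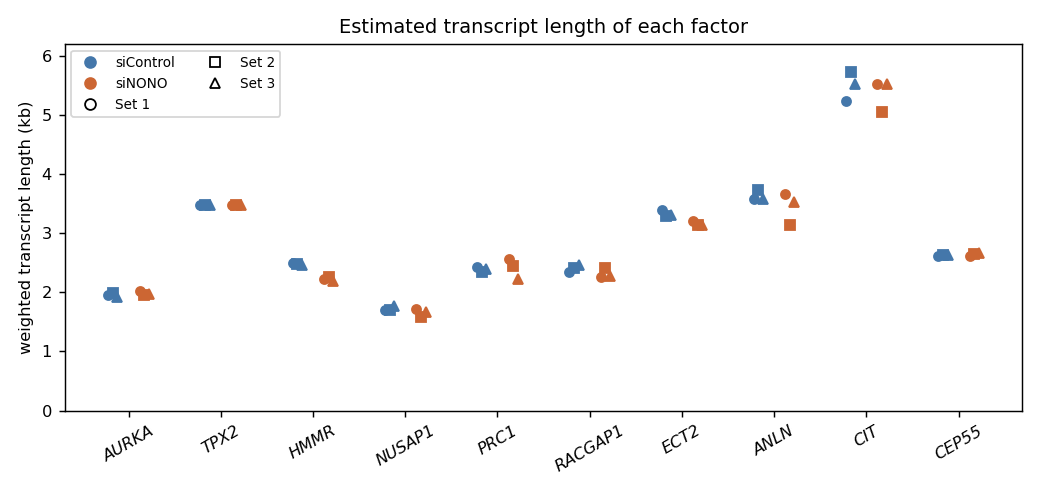
Abundance-weighted transcript length in kilobases (y axis) of the 10 genes in each siControl and siNONO library, 1 point per library. HMMR and ECT2 are the 2 genes in which siNONO lies wholly below siControl.

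The partners of these genes were then described from lists, without a test of any list. All 10 central spindle and chromosomal passenger partners were lower in siNONO, with a median log2 fold change of -0.68. Over all genes tested, 23.4% were called lower. KIF23, the kinesin of centralspindlin, was at 66.2, 66.7 and 65.2 TPM in siControl and 41.2, 39.2 and 36.4 TPM in siNONO, a log2 fold change of -0.65 (standard error 0.0357, adjusted p = 2.47e-08, edgeR). In each Set this value lay below that of RACGAP1, the other subunit of the complex, and the difference was not tested. The midzone kinesins KIF20A at -1.02, KIF14 at -0.84, KIF4A at -0.69 and KIF20B at -0.68 fell as well. So did all 4 chromosomal passenger subunits, with AURKB, the kinase, at -0.88, INCENP at -0.79, BIRC5 at -0.41 and CDCA8 at -0.38. PLK1, the kinase that lets RACGAP1 bind ECT2, changed by -0.46. KIF4A, PLK1 and the chromosomal passenger genes are also in the GO list that the study picked, so their fall is not independent evidence on that list either.

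Among 34 spindle assembly partners, 24 were lower, 4 higher and 6 did not pass the test, with a median of -0.25. Of all genes tested, 23.4% were called lower and 23.2% higher. KIF11, the motor that pushes the spindle poles apart, was the lowest called at -1.03, and HAUS7, an augmin subunit, the highest at 0.29. BORA, a further AURKA activator, changed by -0.49. TACC3, which AURKA phosphorylates, changed by -0.67, and its partner the microtubule polymerase CKAP5 by -0.38. KPNA2, an importin that binds TPX2, was at -0.22. The 4 higher calls became 2 with DESeq2 and 1 with limma on log2(TPM + 1).

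Contractile ring partners moved both ways. Of 22 tested, 10 were lower, 7 higher and 5 neither, with a median of -0.02. Lower and higher calls made up 45.5% and 31.8% of this list, against 23.4% and 23.2% of all genes tested. RHOA, the target of ECT2, changed by -0.16, and its effector formin DIAPH3, which ANLN binds, was the lowest called at -0.91. MYH9, a heavy chain of non-muscle myosin, was at 128, 128 and 137 TPM in siControl and 66.9, 66.1 and 71.8 TPM in siNONO (log2 fold change -0.84). MYH10, another such heavy chain, changed less, by -0.36. SEPTIN7, a filament protein that ANLN recruits, changed by -0.29. The other septins listed did not all follow it. SEPTIN10 was also lower at -0.27, whereas SEPTIN6 at 0.29, SEPTIN8 at 0.14 and SEPTIN11 at 0.44 were higher. SEPTIN2 and SEPTIN9 did not pass the test. CFL1, the actin-severing cofilin, stood at the other end at 1.02, with 558, 551 and 563 TPM in siControl and 1064, 1024 and 1111 TPM in siNONO. On log2(TPM + 1) with limma the counts were 12 lower and 2 higher.

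The ESCRT machinery that CEP55 brings to the midbody had 3 genes lower, 9 higher and 13 neither of 25, with a median of 0.04. These calls made up 12% lower and 36% higher, against 23.4% and 23.2% of all genes tested. TSG101 had a log2 fold change of 0.01 (adjusted p = 0.919), and PDCD6IP (ALIX), which like TSG101 is bound by CEP55, was lower at -0.17. CHMP4B, the filament subunit, had a log2 fold change of -0.01 (adjusted p = 0.840). The lowest called was CHMP3 at -0.24, and the highest VPS25 at 0.71, with 47.7, 50.7 and 50.8 TPM in siControl and 76.0, 73.0 and 81.8 TPM in siNONO. With limma on log2(TPM + 1), which changes both the unit and the test, 5 were lower and 3 higher.

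Kinases related by sequence to AURKA and CIT gave a mixed picture. Of 8 listed, 7 were tested, of which 3 were lower and 4 higher, with a median of 0.09. Among all genes tested, 23.4% were lower and 23.2% higher. Apart from AURKB, already described, the lower ones were ROCK1 at -0.18 and CDC42BPB at -0.15. ROCK2 at 0.22, CDC42BPA at 0.09, CDC42BPG at 0.50 and DMPK at 0.21 were higher. The number called higher among these kinases was 2 without the Set as a block and 1 with limma on log2(TPM + 1). AURKC had too few counts for the test, with 6 to 9 per library.

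**Figure D5:**
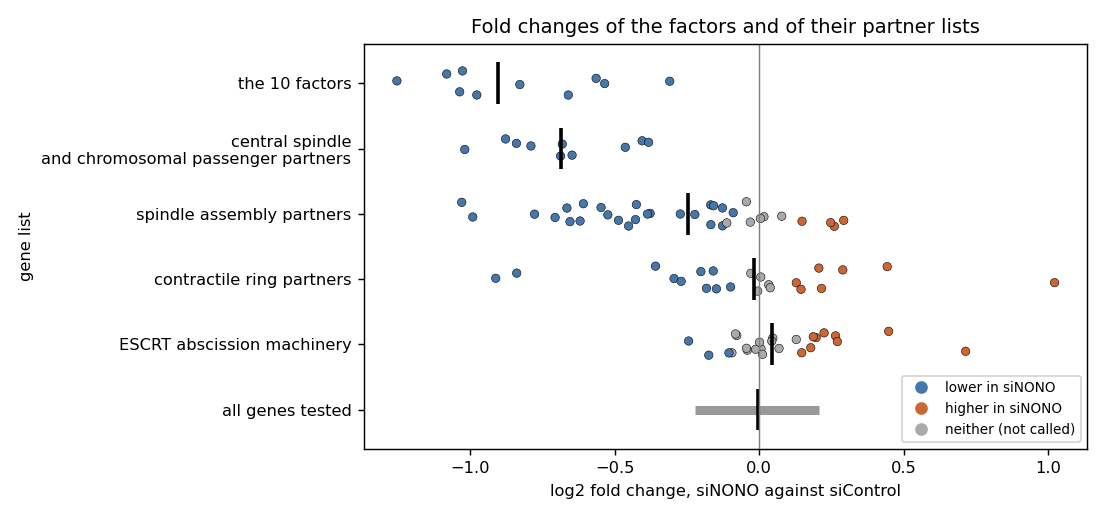
Log2 fold change, siNONO against siControl (x axis), of every tested gene (points, coloured by call) in the 10 genes and in 4 lists of partners, with the median of each list as a line and the median and quartiles of all genes tested in the last row. The 10 genes and the central spindle partners lie wholly below 0, with medians of -0.90 and -0.68, whereas the contractile ring and ESCRT lists lie on both sides, with medians of -0.02 and 0.04.

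Both motifs were counted in the partners' promoter windows. TTTGAA or TTCGAA was found for 7 of the 9 central spindle partners with an entry, for 15 of 32 spindle assembly partners, for 1 of 20 contractile ring partners, for 1 of 19 ESCRT genes and for 1 of 7 kinase relatives, against 16.4% of all windows. CCAAT was found for 9 of 9 central spindle partners, 16 of 32 spindle assembly partners, 13 of 20 contractile ring partners, 7 of 19 ESCRT genes and 4 of 7 kinase relatives, against 34.6% of all windows. The contractile ring list, with a single gene holding the first motif, thus held the second in 65.0% of its genes with an entry. A gene with several windows counts as holding a motif if any window does, whereas the shares of all windows count single windows. The shares by gene and by window are thus not like for like. These counts were not tested, and genes of a list were chosen with earlier results known.

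Genes outside the lists were compared with the 10 genes by their profile of log2 CPM over the 6 libraries. Among 13190 candidates, the 5 profiles nearest to the mean of the 10 genes were those of ATAD2, HOXA9, TMCC1, NEK2 and CDCA2, at root mean square differences of 0.0174, 0.0236, 0.0262, 0.0393 and 0.0400 on the log2 scale. CIT, the nearest of the 10 genes themselves, was at 0.0587, and RACGAP1, the farthest, at 0.259. The 5 were picked as the nearest of 13190 and the 10 genes were not picked by distance. Their distances are thus not like for like. ATAD2 had a log2 fold change of -0.82, HOXA9 of -0.81, TMCC1 of -0.80, NEK2 of -0.79 and CDCA2 of -0.88, all called lower by the same edgeR test. Likeness over 6 libraries in 2 groups reflects mainly the size of the change and is given as a description.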

How the data were processed

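RNA-seq of 3 siControl and 3 siNONO libraries of HCT116 cells was analysed. Reads were aligned by the authors to GRCh37 with STAR, and RSEM (version 1.3.1) was run on them. For each gene the authors deposited the estimated count, which is not normalized, the TPM, scaled by RSEM for length and library size, and the abundance-weighted transcript length in bases. The genes and lists described were chosen with earlier results of these data known. Groups and Sets came from the labels.

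The deposited estimated counts were rounded to whole numbers and tested in edgeR (version 4.0.16, quasi-likelihood test in its edgeR 3 form) with the Set as a block, TMM scaling and filterByExpr. P-values of all 17000 genes tested were adjusted by Benjamini-Hochberg, and 0.05 was the highest adjusted p called. Standard errors were derived from each log2 fold change and its F statistic. Log2 weighted length was tested with limma (version 3.58.1) over genes with at least 10 counts in every library. Both tests were checked on simulated data. The simulation gave all genes a common dispersion for counts and a common SD for lengths, and held no Set effect. It therefore does not show how well either test finds changes in these data. The labels do not say that the libraries came from separate cultures, so p-values may measure technical spread. No pair of replicates agreed within counting noise (chi-square per degree of freedom from 3.23 to 13.8).

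What the Sets stand for is not given in the sources used here. Within a Set, the deviations of both libraries from their group means correlated (r = 0.427, 0.253 and 0.504 over 10840 genes, which are not independent replicates), and those of different Sets gave -0.437 to 0.160. The Set numbers were therefore taken as pairs.

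Gene positions and exon overlaps came from GENCODE version 44 mapped to GRCh37, and promoter windows from RefSeq. Genes named by rule were the 10 genes, NONO, all central spindle partners and kinase relatives, 12 chosen partners, the lowest and highest called gene of each other partner list, and the 5 nearest profiles among genes averaging 1 or more in log2 CPM. MYH10 and the other listed septins were named outside that rule, beside MYH9 and SEPTIN7. As alternatives, scaling by library size alone or by DESeq2's size factors was tried, as were no filter, at least 10 counts in every library (50 for lengths), no block, the edgeR 4 form, DESeq2 (version 1.42.0), limma on log2(TPM + 1) and each library left out. Adding the counts of 1 overlapping or related gene each to PRC1, NUSAP1 and AURKA was chosen after seeing the data.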

Additional observations from a re-analysis of the deposited data

How the results depend on the processing

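All 10 genes were called lower under each of the 14 other settings and omissions of a library, and their median log2 fold change stayed between -0.92 and -0.87. RACGAP1, the smallest change, ran from -0.33 to -0.28 with an adjusted p of at most 0.00523, and NONO from -2.42 to -2.22. The number of genes changed, 7924, was 5227 with DESeq2 and the Set as a block (2612 higher and 2615 lower) and 5257 with limma on log2(TPM + 1) (1643 higher), where the median of all genes was -0.07. Without the replicate block it was 6164, and with 1 library left out it was 6497 to 7653. Since the Sets were taken as pairs, leaving out a library leaves its partner without a contrast. The block changed no call of the 10 genes. Among partners, ESCRT genes called lower went from 3 to 5 with library size alone and with limma, those called higher from 9 to 3 with limma, higher contractile ring genes from 7 to 2 with limma, higher kinase relatives from 4 to 2 without the block and to 1 with limma, and higher spindle assembly partners from 4 to 2 with DESeq2 or without the libraries of Set 1, and to 1 with limma. The cause of these moves was not tested. The log2 difference in weighted length, which passed the test for no gene under any alternative run, changed sign with a library left out for PRC1 (-0.0182 to 0.0710), ANLN (-0.133 to 0.00876) and CIT (-0.0912 to 0.0391). The precision of every value rests on 3 pairs of libraries, and the fewest counts of any of the 10 genes in a library were the 1036 of CIT.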
